A study of Sus scrofa with 35 samples.

Results

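Complex I genes were described in whole blood from 35 castrated male growing pigs kept in thermoneutral (TN) or heat stress (HS) conditions. They were taken as every probe of the array whose gene name began with NDUF: 70 probes of 38 gene names among 60305 probes. Of these, 65 probes of 36 gene names were in the deposited log2 table, which held 39072 probes, and 61 of the 65 stood well above background on every array. NDUFB1 and NDUFAF1 had no probe in the table.

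Complex I is the NADH dehydrogenase of the mitochondrial respiratory chain: it takes electrons from NADH, passes them along iron-sulfur clusters to ubiquinone and pumps protons. A set of core subunits carries out the catalysis, accessory subunits surround and stabilise them, and assembly factors (NDUFAF proteins) help to build the enzyme without staying in it. The core subunits of the membrane arm are encoded by mitochondrial DNA (ND1 to ND6 and ND4L) and all NDUF subunits by nuclear genes. In blood, leukocytes, platelets and immature red cells carry mitochondria, whereas mature red cells have lost them.

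The pigs were Creole (CR, 5 TN and 6 HS), Large White (LW, 6 and 6) or the F1 cross of both breeds (6 and 6), with 1 array per pig. TN pigs were slaughtered at 24 °C, before the room was warmed. HS pigs were slaughtered after 4 or 5 days of heat, which the sample labels give as 30 °C and the protocol as 32 °C. Climate and time of slaughter therefore cannot be told apart. Litters and pens were shared between pigs but are not in the labels used here, so the p-values treat every pig as independent.

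Values are log2 intensities, which compare 1 probe between pigs and not 1 gene with another. Each gene was represented by its brightest probe. A probe was called when the Benjamini-Hochberg adjusted p of limma, over all probes of the table, was under 0.05. On each array 55.16% to 68.02% of probes passed the scanner's test against background on at least 1 spot. Array brightness, taken as the 75th percentile of processed intensity, was 149.9 ± 28.3 (SD, n = 6) in F1 TN pigs and 237.9 ± 35.6 (SD, n = 6) in F1 HS pigs, and the other group means ran from 202.1 to 227.8. The mean log2 of 15 erythroid markers was 11.51 ± 0.66 (SD, n = 6) in F1 TN and 10.44 ± 0.73 (SD, n = 6) in F1 HS pigs, against 10.57 to 11.21 in the other groups. F1 TN pigs thus had the dimmest arrays and the highest erythroid mean on average. Of the 15 erythroid markers, all well above background on at least 34 arrays, 7 fell and 1 (SLC4A1) rose in HS over all breeds (median -0.67), and 6 fell in F1 (median -1.16). Their summed log2 level ran from 18.29 to 19.16 in F1 TN and from 17.99 to 18.96 in F1 HS pigs. Of the leukocyte and platelet markers, 3 of 7 for monocytes, 2 of 8 for T cells and 2 of 5 for B cells rose in HS, 1 of 6 for cytotoxic cells fell, and none of 7 for neutrophils (median -0.39) or 4 for platelets was called. Of the 8811 named genes in the deposited table, 22.8% rose and 16.8% fell in HS over all breeds, and 20.4% fell in F1. In bulk blood, fewer cells of a type and less RNA per cell cannot be told apart.

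The probes that carried the main changes, each 60 bases long, are printed from the array's annotation, 5′ to 3′. The following belong to the core subunits that rose or fell most, and capitals are not used because no stretch is compared.
NDUFS8 (O6442): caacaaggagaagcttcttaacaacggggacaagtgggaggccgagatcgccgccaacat
NDUFV1 (O13692): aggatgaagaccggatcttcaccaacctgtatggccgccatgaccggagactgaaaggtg
NDUFS1 (A_72_P089311): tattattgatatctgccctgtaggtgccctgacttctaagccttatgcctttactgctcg

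Heat and complex I were compared first over all breeds, with breed as a term of the model. In HS pigs more complex I genes were higher than lower: of 36 genes, 13 rose (36.1%, against 22.8% of the 8811 named genes) and 2 fell (5.56% against 16.8%). In all, 15 of 36 were called, 41.7% against 39.5% of named genes, so the share called was close to the background and the split between directions was not. By probe, 19 of 65 were called (29.2% against 34.8% of all probes), 17 upward (26.2% against 20.1%) and 2 downward (3.08% against 14.7%). The HS minus TN change was above 0 in 27 of 36 genes (75% against 58.2%), with a median of 0.14 on the log2 scale against 0.06 over all named genes. These counts were not reached without the F1 pigs, in a fit that also had fewer arrays. Fits without CR pigs or without LW pigs were not made. With F1 pigs left out, no member and none of the 39072 probes was called by limma. An unadjusted p under 0.05 was then seen for 5 of 65 members, against 6845 of all 39072 probes. With the erythroid mean as a covariate no member was called, and 13 of 65 had an unadjusted p under 0.05, against 8566 of all 39072 probes. The median change of the 65 probes was 0.09, as it was without the covariate. Leaving out F1 pigs put that median at 0.05. Under the erythroid covariate NDUFS8 was at 0.32 (0.47 without it), NDUFV1 at 0.29 (0.41), NDUFA13 at 0.13 (0.25) and NDUFS6 at 0.33 (0.34). NDUFS1 was then at -0.25 (-0.45 without it) and NDUFA4L2 at -0.18 (-0.30). With array brightness as a covariate, an alternative chosen after seeing the data, 6 members were called, while 17.2% of all probes were, and the median of the members was 0.05. The part of red cell content or array brightness in the changes was not tested.

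**Figure D1:**
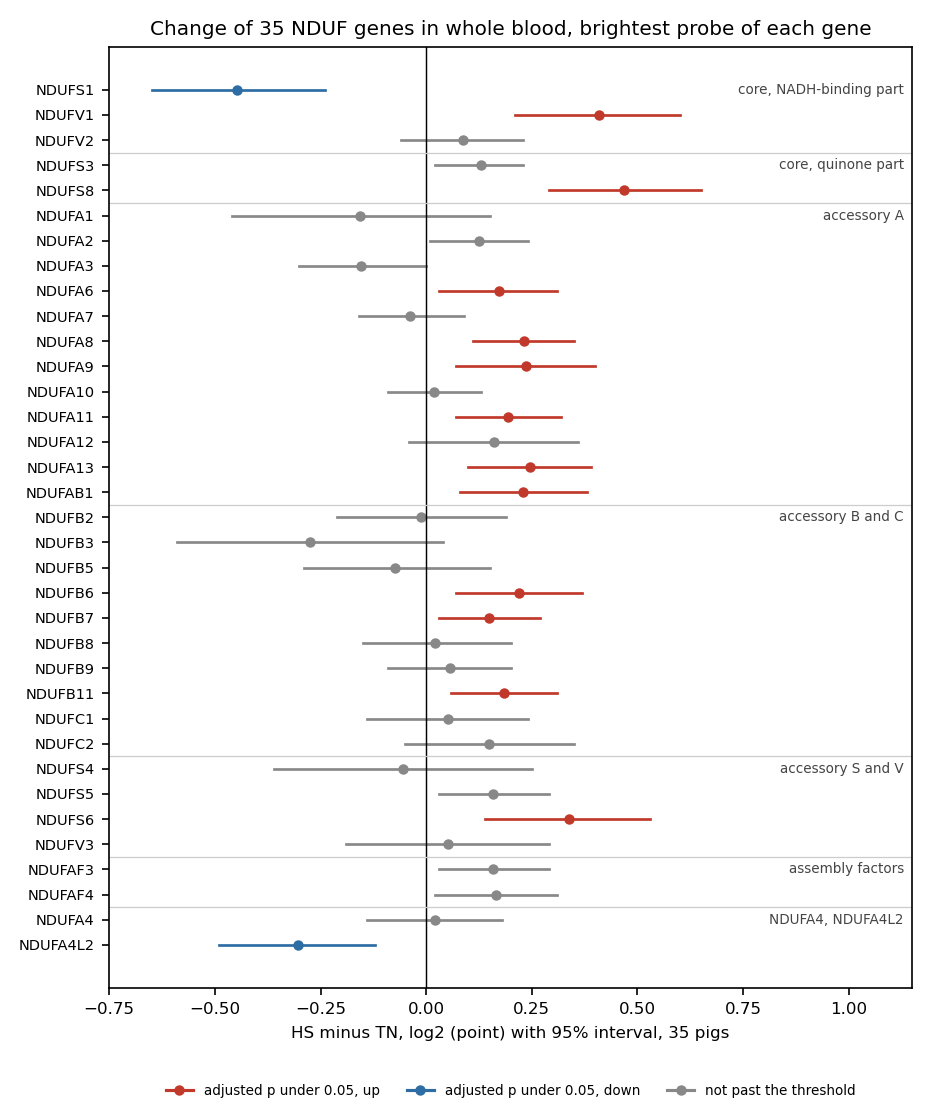
HS minus TN change (x axis, log2) of the brightest probe of each of 35 NDUF genes (y axis, grouped by role) over 35 pigs, as points with 95% intervals. Red marks the 12 genes called upward, blue the 2 called downward (NDUFS1 and NDUFA4L2) and grey the rest, and the largest rise was that of NDUFS8 at 0.47.

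Among the core subunits of the part of the enzyme that reduces ubiquinone, NDUFS8 rose, and NDUFS3 had a change of 0.13 ± 0.05 (SE) that missed the threshold (limma adjusted p = 0.0524). NDUFS3 had 10.16, 10.30, 10.42, 10.50 and 10.55 in CR TN and 9.98 to 10.56 in CR HS pigs (median 10.41), and 10.17 to 10.39 in LW TN (median 10.29) and 10.34 to 10.48 in LW HS pigs (median 10.40), so that both breeds overlapped. NDUFS8, which holds iron-sulfur clusters near the quinone site, had the largest rise of the family. In CR pigs its log2 values were 10.82, 10.93, 11.03, 11.16 and 11.26 in TN and ran from 10.91 to 11.85 in HS (median 11.38). In F1 pigs they ran from 10.39 to 11.21 in TN (median 10.74) and from 11.24 to 11.68 in HS (median 11.52). In LW pigs they ran from 10.79 to 11.21 in TN (median 10.88) and from 11.05 to 11.50 in HS (median 11.32). The F1 groups did not overlap, the CR and LW groups did, and 16 of 18 HS pigs lay above the TN mean of their breed. The change over all breeds was 0.47 ± 0.09 (SE), or 1.38-fold, with a limma adjusted p of 0.00159. It was above 0 on each of the 5 slides (0.33 to 0.70), and without F1 pigs it was 0.35 (limma adjusted p = 0.189).

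The core subunits of the part that oxidises NADH did not move together: NDUFV1 rose, NDUFS1 fell and NDUFV2 did not pass the test. NDUFV1 binds NADH and the flavin that takes its electrons. Its CR values were 6.70, 6.90, 7, 7.03 and 7.14 in TN and ran from 6.77 to 7.73 in HS (median 7.42). In F1 pigs they ran from 6.36 to 7.30 in TN (median 6.94) and from 7.23 to 7.60 in HS (median 7.43), and in LW pigs from 6.55 to 7.23 in TN (median 7.01) and from 6.74 to 7.68 in HS (median 7.27). The groups overlapped in each breed, yet 16 of 18 HS pigs lay above the TN mean of their breed. The change was 0.41 ± 0.10 (SE), or 1.33-fold (limma adjusted p = 0.00261). NDUFV2, an iron-sulfur subunit beside NDUFV1, had 10.24, 10.66, 10.71, 10.72 and 10.79 in CR TN and 10.34 to 10.98 in CR HS pigs (median 10.70). It ran from 10.05 to 10.59 in F1 TN (median 10.44) and from 10.39 to 10.82 in F1 HS (median 10.71), and from 10.24 to 10.82 in LW TN (median 10.51) and from 10.21 to 10.62 in LW HS (median 10.51). The groups overlapped in each breed, and the change was 0.09 with a 95% interval of -0.06 to 0.23 (limma adjusted p = 0.348).

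NDUFS1, the large iron-sulfur subunit that carries electrons onward from NDUFV1 and NDUFV2, fell more than any other member. CR TN pigs had 9.04, 9.22, 9.24, 9.49 and 9.83, and CR HS pigs ran from 8.71 to 9.50 (median 9.09). F1 TN pigs ran from 9.53 to 10.20 (median 9.82) and F1 HS pigs from 8.59 to 9.27 (median 8.99), with no overlap. LW pigs ran from 9.11 to 9.64 in TN (median 9.39) and from 9.10 to 9.49 in HS (median 9.19). NDUFS1 was thus lower in HS in each breed on average, and 15 of 18 HS pigs lay below the TN mean of their breed. The change was -0.45 ± 0.10 (SE), 0.733 of the TN level, with a limma adjusted p of 0.00208. After the same subtraction of breed levels, HS minus TN was below 0 on each of the 5 slides (-0.62 to -0.25), with the same limit for slide 5. Without F1 pigs the change was -0.22 (limma adjusted p = 0.286). The fall was read by 1 probe, since the other NDUFS1 probe (O11552) was not well above background on any array.

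**Figure D2:**
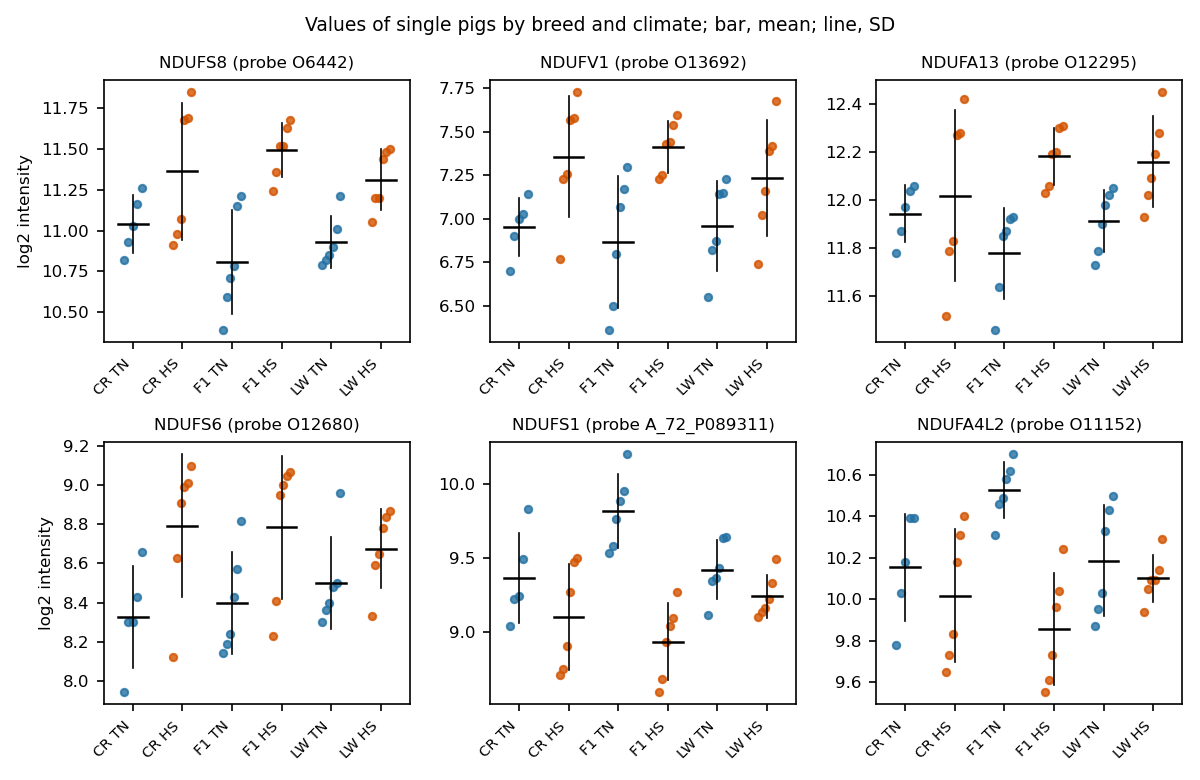
Log2 intensity (y axes) of 35 single pigs in the 6 groups of breed and climate (x axes) for 6 members, with TN in blue, HS in orange, group means as bars and SD as vertical lines. In F1 pigs NDUFS8 was higher in every HS than in every TN pig, and NDUFS1 and NDUFA4L2 were lower in every HS pig.

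Among the 12 accessory subunits of the A series, 6 rose, none fell, and the median change was 0.17. Of all named genes 22.8% rose and 16.8% fell, with a median of 0.06. NDUFA13, also known as GRIM-19, which joins the peripheral and membrane arms, had the largest rise of the series at 0.25 ± 0.07 (SE; limma adjusted p = 0.00978). CR pigs had 11.78, 11.87, 11.97, 12.04 and 12.06 in TN and 11.52 to 12.42 in HS (median 12.05). F1 pigs had 11.46 to 11.93 in TN (median 11.86) and 12.03 to 12.31 in HS (median 12.20), and LW pigs 11.73 to 12.05 (median 11.94) and 11.93 to 12.45 (median 12.14). The groups were apart in F1 and overlapped in CR and LW. NDUFA8, which lies in the intermembrane space, rose by 0.23, NDUFA9, at the joint of the arms, by 0.24, and NDUFAB1, the mitochondrial acyl carrier protein, by 0.23. NDUFA6, which binds NDUFAB1, rose by 0.17 and NDUFA11, a membrane subunit, by 0.19. The 6 rises of the A series had limma adjusted p-values between 0.00371 and 0.0464. The dimmer probes of NDUFA6, NDUFA8 and NDUFAB1 were not called, at 0.14, 0.22 and 0.06 (limma adjusted p = 0.146, 0.0634 and 0.593). NDUFA7 had a change of -0.04 and NDUFA10 of 0.02, both with 95% intervals within 0.2 of 0. The NDUFA10 probe was dim, at a mean of 5.32, and was well above background on 15 of 35 arrays and on none of the 6 in F1 TN.

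Among 10 accessory subunits of the B and C series, all in the membrane arm, 3 rose, none fell, and the median was 0.05. Over all named genes, 22.8% rose, 16.8% fell, and the median was 0.06. NDUFB6 rose by 0.22, NDUFB7 by 0.15 and NDUFB11 by 0.18, with limma adjusted p-values of 0.0197, 0.0444 and 0.0185. The dimmer NDUFB6 probe was not called, at 0.06 (limma adjusted p = 0.433). The dimmer NDUFB11 probe rose, by 0.24 (limma adjusted p = 0.0133). The longest stretch that the 2 NDUFB11 probes share is 34 bases, and its start is in capitals in the first 30 bases of each. Before that stretch they differ only in the last lower-case base, so they are not independent readings.
NDUFB11 (A_72_P433864): ctgtctgccattctgccctcCTCTCAGAGC
NDUFB11 (O14068): ctgtctgccattctgcccttCTCTCAGAGC

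NDUFB8, another membrane subunit, had 7 probes, of which 1 was called. A_72_P533639 rose by 0.28 (limma adjusted p = 0.0233), while the other 6 had changes between -0.02 and 0.08. Among these 6, A_72_P242552 was well above background on 14 of 35 arrays. The brightest, A_72_P647361, shares 56 bases with A_72_P014556 and 53 with O11566, so these probes are not independent readings. The called probe begins ttccttccagtgctaacattacaacattgt and shares at most 6 bases in a row with any other NDUFB8 probe. By contrast O11566 and A_72_P014556, which did not pass, share 56 bases, shown in capitals over the first 30 of each.
NDUFB8 (O11566): CCTCAATCCTAGAGATTTAACCTTAGTGAA
NDUFB8 (A_72_P014556): ctcCCTCAATCCTAGAGATTTAACCTTAGT
NDUFB9 had no called probe among 4. Of the 4 accessory subunits of the S and V series, NDUFS6 alone was called, while 39.5% of named genes were. NDUFS6, a zinc-binding subunit, had 7.94, 8.30, 8.30, 8.43 and 8.66 in CR TN pigs and 8.12 to 9.10 in CR HS pigs (median 8.95). It ran from 8.14 to 8.82 in F1 TN (median 8.33) and from 8.23 to 9.07 in F1 HS (median 8.97), and from 8.30 to 8.96 in LW TN (median 8.44) and from 8.33 to 8.87 in LW HS (median 8.72). The groups overlapped in each breed, and HS medians were the higher ones in all 3. The rise was 0.34 ± 0.10 (SE; limma adjusted p = 0.00829), and 15 of 18 HS pigs lay above the TN mean of their breed.

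NDUFA4, once counted with complex I and now with cytochrome c oxidase, had changes between 0 and 0.10 on its 7 probes, none called. Its paralog NDUFA4L2, known for its induction by hypoxia in other tissues, fell on probe O11152. CR pigs had 9.78, 10.03, 10.18, 10.39 and 10.39 in TN and 9.65 to 10.40 in HS (median 10.01). F1 pigs had 10.31 to 10.70 in TN (median 10.53) and 9.55 to 10.24 in HS (median 9.85), and LW pigs 9.87 to 10.50 (median 10.18) and 9.94 to 10.29 (median 10.09). The groups were apart in F1 and overlapped in CR and LW. The change was -0.30 ± 0.09 (SE; limma adjusted p = 0.0114). A second NDUFA4L2 probe, A_72_P171081, overlaps O11152 by 48 bases, shown in capitals over the first 30 of each. It had a change of 0.07 with a 95% interval of -0.04 to 0.18 (limma adjusted p = 0.326). This second probe was dim, at a mean of 5.89 against 10.14 for O11152, though well above background on all 35 arrays. The fall was thus called on 1 of these 2 overlapping probes.
NDUFA4L2 (O11152): cctgctcccctcTGTCCCCCGGGATCAAAC
NDUFA4L2 (A_72_P171081): TGTCCCCCGGGATCAAACAGAAGCAGCCGT

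**Figure D3:**
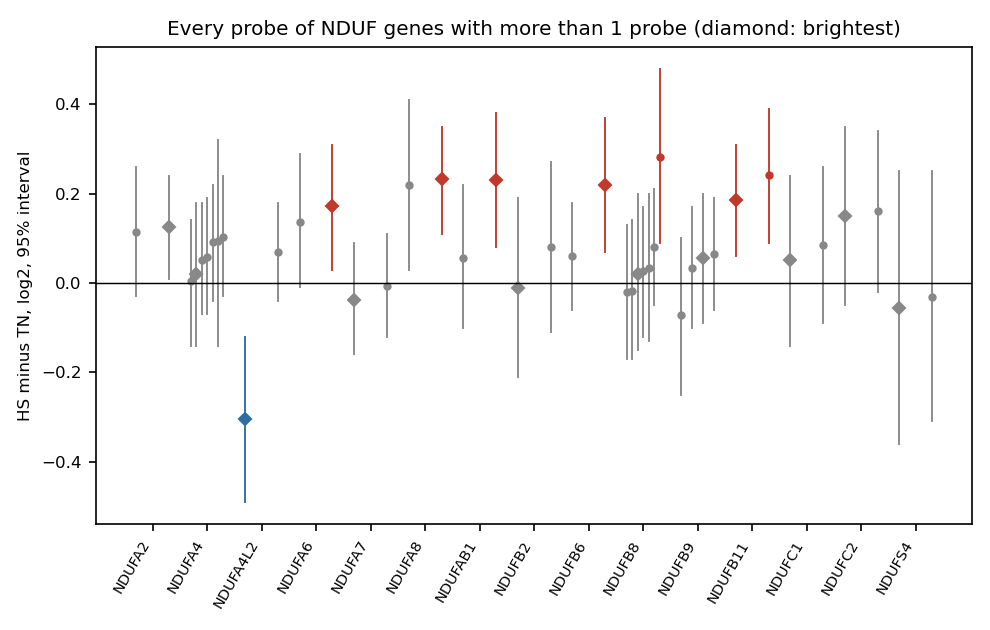
HS minus TN change (y axis, log2, 95% intervals as lines) of every probe of 15 NDUF genes with more than 1 probe (x axis), diamonds marking the brightest probe, red a called rise, blue a called fall and grey no call. Both NDUFB11 probes rose, 1 of 7 NDUFB8 probes rose, and the 2 NDUFA4L2 probes lay on opposite sides of 0.

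The assembly factors NDUFAF3 and NDUFAF4, which act together in building the peripheral arm, were measured, and NDUFAF1 was not well above background on 34 of 35 arrays. NDUFAF3 had a change of 0.16 ± 0.07 (SE; limma adjusted p = 0.0575) and NDUFAF4 of 0.17 ± 0.07 (SE; limma adjusted p = 0.0722) over all breeds. Of 6 measured assembly factors without an NDUF name, TMEM186 rose by 0.29 and ATP5SL by 0.27, and the median of the 6 was 0.18. The 7 mitochondrial ND subunits, the partners of the NDUF core, had changes between 0.05 and 0.20 with none called. For the other respiratory complexes 1 of 3 genes of complex II rose, 3 of 7 of complex III, 3 of 8 of complex IV and 3 of 15 of complex V, and 1 of complex IV and 2 of complex V fell. Of 9 genes of mitochondrial mass and import, citrate synthase (CS) rose, by 0.33. Beside these lists, 22.8% of all named genes rose and 16.8% fell. No test of complex I against these lists was made.

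Within breeds, the main fit made calls in the F1 cross alone. In F1 pigs 19 of 36 complex I genes were called (52.8% against 43.5% of named genes), 16 upward (44.4% against 23%) and 3 downward (8.33% against 20.4%). By probe it was 24 of 65 (36.9% against 38.7%), 21 upward (32.3% against 20.8%) and 3 downward (4.62% against 17.9%). In CR and in LW pigs no member and no probe of the table was called (0% in both), with 4 of 65 members at an unadjusted p under 0.05 in each breed, 6.15% against 8.87% of all probes in CR and 8.71% in LW. In F1 pigs the HS and TN values did not overlap for 11 of 36 genes (30.6%, against 14.5% of named genes), 8 with HS above and 3 with HS below, and no member gene was separated in CR (0.477% of named genes) or LW (0.919%). With array brightness as a covariate, chosen after seeing the data, the F1 count fell to 0 by limma, with none of all 39072 probes called. An unadjusted p under 0.05 was then seen for 12 of 65 members, against 5805 of all 39072 probes. With the erythroid mean as a covariate 7 members were called in F1, with 7.93% of all probes called.

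In F1 pigs NDUFS8 rose by 0.69 (1.61-fold), NDUFV1 by 0.55 and NDUFS3 by 0.26, with limma adjusted p-values of 0.00095, 0.0101 and 0.0163. NDUFS3, a core subunit of the peripheral arm, ran from 10.01 to 10.32 in F1 TN (median 10.28) and from 10.40 to 10.58 in F1 HS (median 10.53), with no overlap. Its call was lost without F1 TN replicate 2 (limma adjusted p = 0.0523). NDUFS6, at 0.39, and NDUFV2, at 0.28, missed the threshold (limma adjusted p = 0.0624 and 0.0546). NDUFS1 fell by 0.89 to 0.541 of its TN level (limma adjusted p = 0.000211) and NDUFA4L2 by 0.67 (limma adjusted p = 0.000632). Both NDUFS1 and NDUFA4L2 were also called under the erythroid covariate, at -0.60 and -0.52 (limma adjusted p = 0.0194 and 0.0356). NDUFS8, NDUFV1 and NDUFS3 were not, at 0.45, 0.36 and 0.25 (limma adjusted p = 0.0648, 0.2 and 0.103). With array brightness as a covariate none of these genes was called. NDUFS1 and NDUFA4L2 were then at -0.45 and -0.38 (limma adjusted p = 0.156 and 0.223). NDUFS8, NDUFV1 and NDUFS3 were at 0.54, 0.33 and 0.24 (limma adjusted p = 0.169, 0.435 and 0.276). Averaged over its probes, NDUFA4L2 fell by 0.33 in F1 pigs (limma adjusted p = 0.00236).

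Both assembly factors rose in F1 pigs. NDUFAF4 ran from 5.45 to 5.90 in F1 TN (median 5.68) and from 5.91 to 6.36 in F1 HS (median 6.14), a rise of 0.43 (limma adjusted p = 0.00389). This probe was dim, and its F1 change was 0.87 with scaling on the 75th percentile (limma adjusted p = 0.00132) and 0.16 with array brightness as a covariate (limma adjusted p = 0.531). NDUFAF3 ran from 10.79 to 11.29 (median 10.89) and from 11.07 to 11.62 (median 11.34), a rise of 0.36 (limma adjusted p = 0.00851). Under the erythroid covariate NDUFAF4 was called, at 0.42 (limma adjusted p = 0.0442), and NDUFAF3 was not, at 0.25 (limma adjusted p = 0.172). With array brightness as a covariate the NDUFAF3 change was 0.23 (limma adjusted p = 0.379). The F1 groups were apart for NDUFAF4 and overlapped for NDUFAF3. In CR pigs NDUFAF4 had 5.52, 5.64, 5.97, 6.05 and 6.25 in TN and 5.81 to 6.27 in HS (median 5.92), and in LW pigs 5.75 to 6.10 in TN (median 5.80) and 5.61 to 5.99 in HS (median 5.88). NDUFAF3 had 11.08, 11.16, 11.18, 11.23 and 11.25 in CR TN and 10.87 to 11.40 in CR HS (median 11.17), and 10.91 to 11.40 in LW TN (median 11.17) and 11.14 to 11.55 in LW HS (median 11.25). Both genes overlapped between climates in CR and LW, where the change of NDUFAF4 was 0.09 and -0.04, neither called.

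Of the A series in F1 pigs, 8 of 12 rose and 1 fell, against 23% and 20.4% of named genes. Among the rises were NDUFA12 by 0.53, NDUFAB1 by 0.50, NDUFA9 by 0.48 and NDUFA8 by 0.39. The dimmer probes of NDUFAB1, NDUFA8 and NDUFA2 were not called in F1, at 0.25, 0.325 and 0.22 (limma adjusted p = 0.117, 0.105 and 0.14). That of NDUFA6 rose by 0.334 (limma adjusted p = 0.0316). The one that fell was NDUFA3, a small membrane-spanning subunit, which ran from 11.74 to 11.99 in TN (median 11.93) and from 11.11 to 11.66 in HS (median 11.58). Its groups did not overlap and the change was -0.42 (limma adjusted p = 0.00633). NDUFA2, of the NADH-oxidising part, ran from 11.29 to 11.49 in TN and from 11.51 to 11.79 in HS, a rise of 0.30 (limma adjusted p = 0.00829). In the membrane arm NDUFB6 rose by 0.51 and NDUFB11 by 0.35, and the remaining 8 genes of the B and C series were not called on their brightest probe. The dimmer NDUFB6 probe was not called in F1, at 0.03 (limma adjusted p = 0.82). The dimmer NDUFB11 probe rose by 0.475 (limma adjusted p = 0.00201). Of the NDUFB8 probes, A_72_P533639 rose by 0.54 (limma adjusted p = 0.0095) and the others were not called. The 7 mitochondrial ND subunits had F1 changes between 0.31 and 0.59, none called on the brightest probe.

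**Figure D4:**
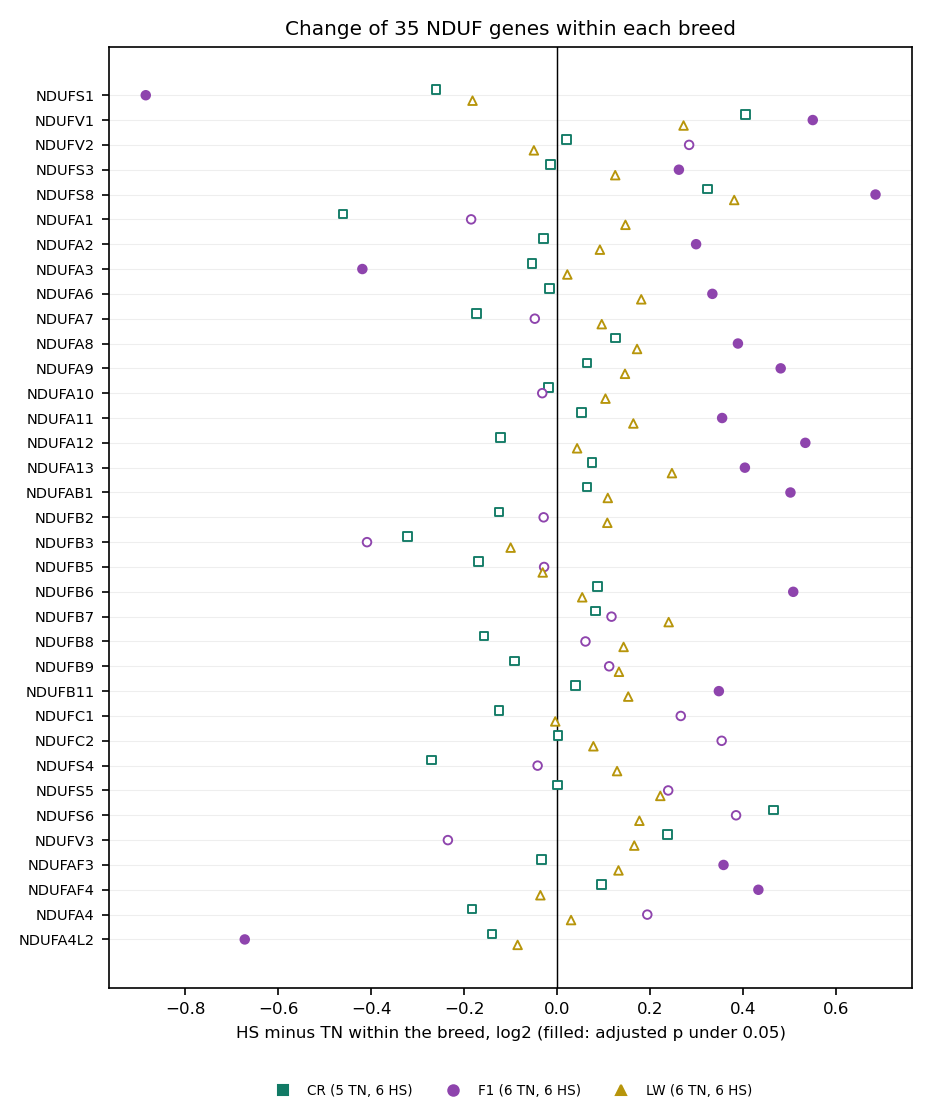
HS minus TN change within each breed (x axis, log2) for 35 NDUF genes (y axis, in the order of roles), with squares for CR, circles for F1 and triangles for LW, filled where the limma adjusted p was under 0.05. Filled points occur in F1 alone (15 to the right of 0, 3 to the left), and LW points lie above 0 for 28 of 35 genes (52.4% of named genes) against 16 for CR (54.6%).

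The difference between breeds in the heat effect was itself tested and was not called for any member or any other probe (0%). By the interaction test of limma 10 of 65 members had an unadjusted p under 0.05, 15.4% against 14.9% of all probes. NDUFS1 had the smallest interaction p of the members, 0.0039 unadjusted (limma adjusted p = 0.278): its changes were -0.26 in CR, -0.89 in F1 and -0.18 in LW. The F1 effect minus the LW effect was -0.70 ± 0.21 (SE; limma adjusted p = 0.122), and minus the CR effect -0.62 ± 0.22 (SE; limma adjusted p = 0.398). Comparing the heat effects of F1 and CR, 14 of 65 members had an unadjusted p under 0.05, 21.5% against 11.8% of all probes, and comparing F1 and LW it was 9 of 65, 13.8% against 22.7%, with none called in either (0% of all probes). F1 calls were therefore not shown to differ from the other breeds. All 3 breeds shared the direction in 18 of 36 genes, 14 up and 4 down, 50% against 60% of named genes. NDUFV1, NDUFS6 and NDUFS8 were among those up in all 3, and NDUFS1 and NDUFA4L2 (on its brightest probe, O11152) among those down. The overlapping NDUFA4L2 probe A_72_P171081 had changes of 0.12 in CR, 0.02 in F1 and 0.07 in LW pigs, none called.

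Breed differences with climate in the model were not called for any member. Of all probes 1.08% were called between CR and LW, 0.184% between F1 and CR, 0.0256% between F1 and LW, and 0.0717% between F1 and the mean of both parent breeds. At an unadjusted p under 0.05 there were 6 members between CR and LW (9.23%, against 3950 of all 39072 probes), 5 between F1 and CR (7.69% against 4.95% of all probes) and 3 between F1 and LW (4.62% against 4.48%). The member nearest to the threshold between CR and LW was NDUFB9, a membrane arm subunit, on probe A_72_P680773, at -0.36 ± 0.11 (SE; limma adjusted p = 0.0971). CR means were 11.83 ± 0.23 (SD, n = 5) in TN and 11.72 ± 0.42 (SD, n = 6) in HS, and LW means 12.12 ± 0.14 (SD, n = 6) and 12.14 ± 0.16 (SD, n = 6). F1 pigs had means of 11.91 ± 0.33 (SD, n = 6) in TN and 11.79 ± 0.14 (SD, n = 6) in HS, and F1 minus LW was -0.29 (limma adjusted p = 0.816). Between CR and LW the other NDUFB9 probes were at -0.226, -0.186 and, on the brightest (O10220), -0.165 (limma adjusted p = 0.233, 0.328 and 0.55).

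NDUFV3, a flavoprotein-associated accessory subunit, had means of 8.61 ± 0.45 (SD, n = 5) in CR TN and 8.85 ± 0.30 (SD, n = 6) in CR HS pigs, 9.22 ± 0.35 (SD, n = 6) and 8.98 ± 0.40 (SD, n = 6) in F1, and 9.14 ± 0.41 (SD, n = 6) and 9.30 ± 0.16 (SD, n = 6) in LW. It had a CR minus LW difference of -0.48 ± 0.15 (SE; limma adjusted p = 0.124) and an F1 minus CR difference of 0.36 ± 0.15 (SE; limma adjusted p = 0.819). NDUFA1, an X-linked membrane subunit, differed most from the parental mean, at -0.43 ± 0.16 (SE; limma adjusted p = 0.999). Its means were 9.61 ± 0.35 (SD, n = 5) and 9.15 ± 0.31 (SD, n = 6) in CR TN and HS, 9.01 ± 0.80 (SD, n = 6) and 8.83 ± 0.26 (SD, n = 6) in F1, and 9.26 ± 0.48 (SD, n = 6) and 9.41 ± 0.29 (SD, n = 6) in LW. None of these contrasts passed the test. Within groups, members varied less than the array as a whole, with a median SD of 0.21 against 0.27 for all probes, and NDUFS3 had the lowest of the members at 0.13.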

How the data were processed

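Whole blood RNA of 35 pigs was hybridised to 1-colour Agilent porcine arrays, 1 array per pig. The authors extracted spot intensity with Agilent Feature Extraction 10.10.1.1 (per the labels) and deposited a log2 table of filtered, quantile-normalized values. Deposited log2 values were used as given. Median intensity recomputed from the scanner files correlated with them at r = 0.99997, with a largest difference of 0.3215. The gene names, probe sequences and background flags came from the scanner files. The study updated the probe annotation against a pig genome assembly, but its sequence was not used here and no positions are stated.

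R 4.3.3 and limma 3.58.1 were used: lmFit and eBayes over all 39072 probes, two-sided, Benjamini-Hochberg adjusted. Climate and breed contrasts came from an additive model, and effects within breeds and the interaction from the 6 group means. The study's random terms (pen, slaughter day, father, mother) could not be fitted, as the labels used here do not give them. Code was tested on simulated data. Precision is limited by how many arrays there are. The members, roles, marker lists and pathway lists were chosen with earlier results of these data known. Values by group are given for the nuclear core subunits, up to 5 of the largest called rises and falls, the assembly factors and the member with the smallest p in each breed contrast and in the interaction. NDUFA2, NDUFA3, NDUFB8 and the other genes named were chosen after their values were seen. 1 gene entered the counts over all members but its own values are not reported here or drawn. Alternatives were median, 75th-percentile and normexp (offset 50) versions, no filter and a strict filter, slide as a block, array weights, gene means, an erythroid covariate, F1 pigs left out, each array left out, and an array brightness covariate added after seeing the data.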

Additional observations from a re-analysis of the deposited data

Results flagged for a closer look

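Among 78 groups of values (13 named probes in 6 groups), 5 held a pig far from the others of its group by Dixon's test, 6.41%, where chance gives about 1 in 20. NDUFV3 (O12406) was at 8.28 in CR HS replicate 1, with the others at 8.83 to 9.15. NDUFS3 (O2296) was at 10.01 in F1 TN replicate 2, with the others at 10.25 to 10.32. NDUFV2 (O10219) was at 10.24 in CR TN replicate 2, with the others at 10.66 to 10.79. NDUFS6 (O12680) was at 8.96 in LW TN replicate 3, with the others at 8.30 to 8.50. NDUFAF3 (A_72_P305189) was at 11.55 in LW HS replicate 1, with the others at 11.14 to 11.29. Replicate numbers follow the order of the sample list and name pigs only.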

How the results depend on the processing

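Against 19 members called for HS minus TN, the erythroid covariate left 0 (5 of all 39072 probes), array brightness 6 (17.2% of all probes), and leaving out F1 pigs 0. Against 24 in F1, the erythroid covariate left 7 (7.93% of all probes) and array brightness 0. Between CR and LW, array weights called 3 members against 0 (3.9% of all probes against 1.08%), and leaving out LW TN replicate 3 called 1. For HS minus TN in LW pigs, array weights called 1111 of all 39072 probes (2.84%) but no member. Leaving out each array in turn gave 17 to 24 calls for HS minus TN, 22 to 28 in F1, 0 to 1 between CR and LW, and 0 for the other comparisons. Over these fits the NDUFS8 change ran from 0.43 to 0.50 and that of NDUFS1 from -0.48 to -0.41, and no called HS minus TN gene among those given by group lost its call. NDUFS3, NDUFAF3 and NDUFAF4 passed the threshold over all breeds in 6, 7 and 5 of the 35 fits, and NDUFV2 and NDUFS6 in F1 in 6 and 4. NDUFV2 turned sign with array brightness (-0.01 over all breeds, -0.0026 in F1) and without F1 pigs (-0.02). NDUFA4L2 averaged over its probes changed by -0.12 (limma adjusted p = 0.0728). The cause of these changes was not tested. Scaling on the 75th percentile put the median change of all probes at 0.18 in F1 against 0.13. No paired analysis was possible because the labels give no replicate numbers or litters. Signal limited the 5 NDUF probes outside the table, which were well above background on at most 4 of 35 arrays.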

Other observations

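Some probes without an NDUF name shared at least 20 bases in a row with a member. A probe named only by an Ensembl transcript shares sequence with the NDUFA9 probe and rose by 0.24 in HS (limma adjusted p = 0.0061), the same size as NDUFA9. A probe named NUDFV2 shares sequence with the NDUFV2 probe and had a change of 0.07 (limma adjusted p = 0.427), near the 0.09 of NDUFV2. A probe named LOC100157673, which shares sequence with the NDUFAF4 probe, changed by 0.06 (limma adjusted p = 0.58) against 0.17 for NDUFAF4.

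Of 10 probes that the array describes as alpha or beta subcomplex subunits of complex I under other names, 3 were called. LOC100155809, described as beta subunit 8, fell by 0.36 in HS (limma adjusted p = 0.013), although none of the 7 NDUFB8 probes fell. TC555409, described as alpha subunit 11, fell by 0.27 (limma adjusted p = 0.00876), whereas the NDUFA11 probe rose by 0.19. TC604593, described as alpha subunit 10, rose by 0.27 (limma adjusted p = 0.00764), while the NDUFA10 probe, well above background on 15 of 35 arrays, had a change of 0.02. Whether these probes read the genes they are described as was not tested.

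The mitochondrial ND genes were read by 52 probes. Their brightest probes had changes below 0 for all 7 genes in CR pigs (median -0.44) and above 0 for all 7 in F1 (median 0.46) and LW (median 0.23), none called within a breed. Of named genes 54.6% were above 0 in CR, 60.9% in F1 and 52.4% in LW. Not every probe had the sign of the brightest: in F1 the lowest ND6 probe was at -0.15. By limma 1 of the 52 probes, of ND4, rose in F1 pigs and none was called over all breeds.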
